A study of Mus musculus with 6 samples.

Results

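Integrins are the receptors that couple cells to the extracellular matrix, and laminins are the main adhesive proteins of the basement membrane that surrounds each heart muscle cell and underlies the endothelium. The genes described here were the protein-coding rows of the deposited table whose symbols begin with Itga, Itgb or the laminin prefixes Lama, Lamb and Lamc followed by a digit, 42 of 55401 genes. The rule used names only and no measured value. They comprised 18 integrin α chains, 8 integrin β chains, 11 laminin chains and 5 other proteins that match by name. Poly(A) RNA from whole hearts of C57BL/6 mice aged 6 to 8 weeks was sequenced, with 3 libraries from control animals and 3 from animals that received angiotensin II (Ang II), a peptide hormone that constricts vessels and is used to produce cardiac hypertrophy. Every p-value measures the spread between these hearts, 3 a group. The dose, route and duration of Ang II are not given in the sources used here. The series title also names corynoline, PPARα and NF-κB, but corynoline treatment was not analysed here.

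An integrin is a pair of one α and one β chain, and the α chain largely sets the ligand: some pairs bind laminin, some collagen, some the arginine-glycine-aspartate motif of fibronectin and related proteins, and some counter-receptors on other cells. Laminins are secreted as trimers of an α, a β and a γ chain. In cardiomyocytes, integrins and the dystroglycan complex sit at costameres, where they link the basement membrane to the sarcomere, and integrin adhesion sites are known as places where mechanical load is sensed.

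The count totals of the 6 libraries ran from 51202916 to 63564869. Ang II replicate 1 lay apart from the others, with a median correlation of 0.907 with the other libraries against 0.945 to 0.953 for those 5. Among the 38 members with enough counts for testing it was the highest or lowest of all 6 libraries for 25, whereas each other library was so for 5 to 13. Heart muscle markers were abundant in every library, with a summed level of 35026 to 45684 CPM (normalised read counts, scaled to a common library size by edgeR) over 6 cardiomyocyte genes. The 6 lymphocyte markers together reached 1.20 to 2.14 CPM, and the 6 epithelial and mesothelial markers 0.582 to 3.92 CPM. Endothelial markers summed to 572 to 621 CPM in control and 422 to 440 CPM in Ang II hearts, with 6 of 6 lower on the fitted scale. By edgeR 4 of them stood at an unadjusted p under 0.05, against 3.94% of all genes lower. Without Ang II replicate 1 all 6 did, against 7.60% of genes lower. DESeq2 called 2 of them, against 0.698% of all genes lower. Fibroblast markers summed to 433 to 459 CPM in control hearts, and in the 3 Ang II hearts to 197, 486 and 469 CPM. Of the 6, 4 had folds below 0, and 2 (Col1a1 and Tcf21) were lower at an unadjusted p under 0.05 by edgeR. That compares with 3.94% of all genes lower. Without Ang II replicate 1, 1 was higher and 1 lower, against 7.75% and 7.60% of genes. In whole-heart RNA, fewer cells of a type and less RNA per cell cannot be told apart.

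Itga5, the α chain of the fibronectin receptor, was 1.46-fold higher in Ang II hearts, with no overlap between the groups in CPM. Lama3, an α chain of epithelial basement membranes, stood at 0.562 times the control level, Itga4 at 0.586 and the collagen-binding Itga10 at 0.377 times. None of the 38 tested members passed an adjusted p of 0.05 over all genes in edgeR's quasi-likelihood test, where 0.0358% of all 16759 genes did. By DESeq2 1 member was called, in the direction of higher in Ang II hearts. DESeq2 called 1.65% of all genes, 0.949% higher and 0.698% lower. Below an unadjusted p of 0.05 in edgeR were 5 of the 38 members, 2 higher and 3 lower, against 7.51% of all genes, 3.57% higher and 3.94% lower. Without Ang II replicate 1, 0 of 39 members tested were called by edgeR, where 0.730% of genes were. That fit placed 3 members higher (Itga5 and Itgbl1 among them) and 4 lower (Itga10, Itgb2, Lama3 and Lama4) below an unadjusted p of 0.05, against 7.75% and 7.60% of genes.

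Of the 38 tested members, 16 had a log2 change above 0 and 22 below, with a median of -0.08, while 50.9% of all genes tested lay above 0 and 49.1% below. In CPM, all Ang II libraries lay above all control libraries in 5 members and below them in 6. Of all genes 7.97% and 9.21% did so, 17.2% in either direction. The 95% interval of the log2 change lay inside -1 to 1, a 2-fold change either way, for 20 members and for 48.4% of all genes. The plot of changes by role shows the other intervals, the widest of them for Lamc3, Itgal and Itga2.

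**Figure D1:**
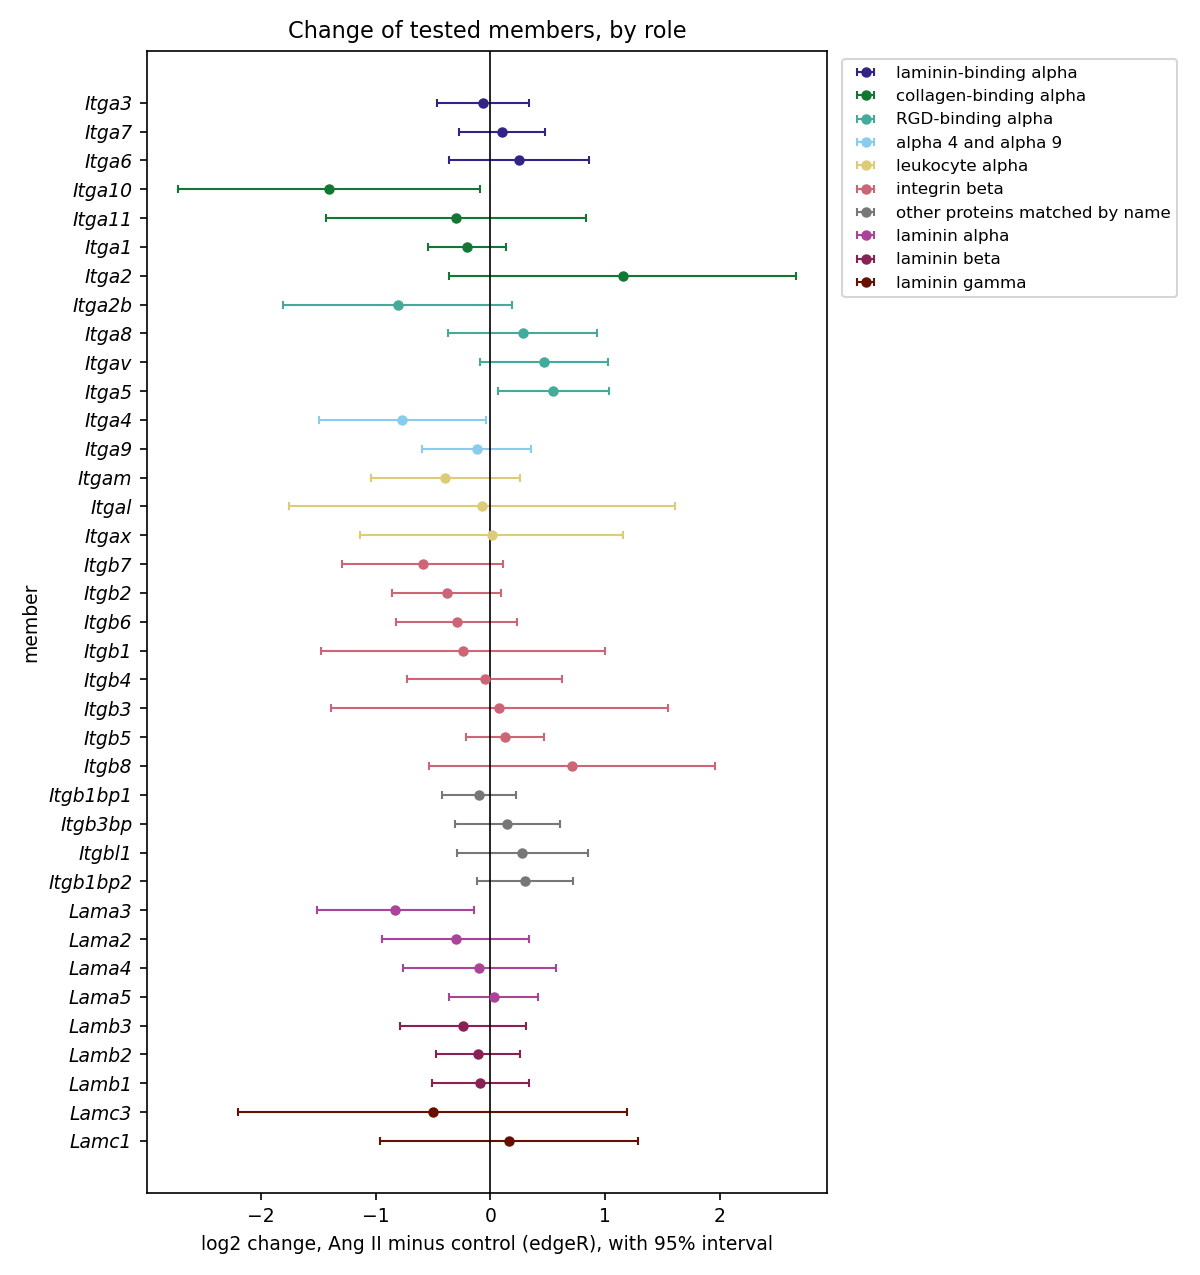
Log2 change (Ang II minus control, edgeR) of each tested member reported on the horizontal axis, with its 95% interval as a bar, members on the vertical axis coloured by role. Itga2 stands farthest to the right of 0 at 1.15 and Itga10 farthest to the left at -1.41, while most intervals span 0.

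FPKM (fragments scaled to transcript length and to the fragments of the library) was used to compare one gene with another. Overlap between groups is stated in CPM throughout. Itga5, Itga4, Itga1, Itgb2 and Itgb3bp, without overlap in CPM, had overlapping groups in FPKM. The most abundant transcript was Itgb1bp2, which encodes melusin, a muscle-restricted protein that binds the β1 tail, with 71.4 ± 16.1 FPKM in control and 88.9 ± 3.67 FPKM in Ang II hearts (mean ± SD, n = 3). Lamb2 followed with 33.2 ± 6.39 and 32.1 ± 8.00 FPKM. The β chains Itgb5 and Itgb1 came next and did not differ from each other beyond their spread, with 15.5 ± 1.86 and 15.6 ± 5.02 FPKM in control hearts. Only these 4 members had a mean of at least 10 FPKM over the 6 libraries. Another 14 lay between 1 and 10 FPKM and 24 lay under 1 FPKM, among them 4 of the 5 members with an unadjusted p under 0.05.

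**Figure D2:**
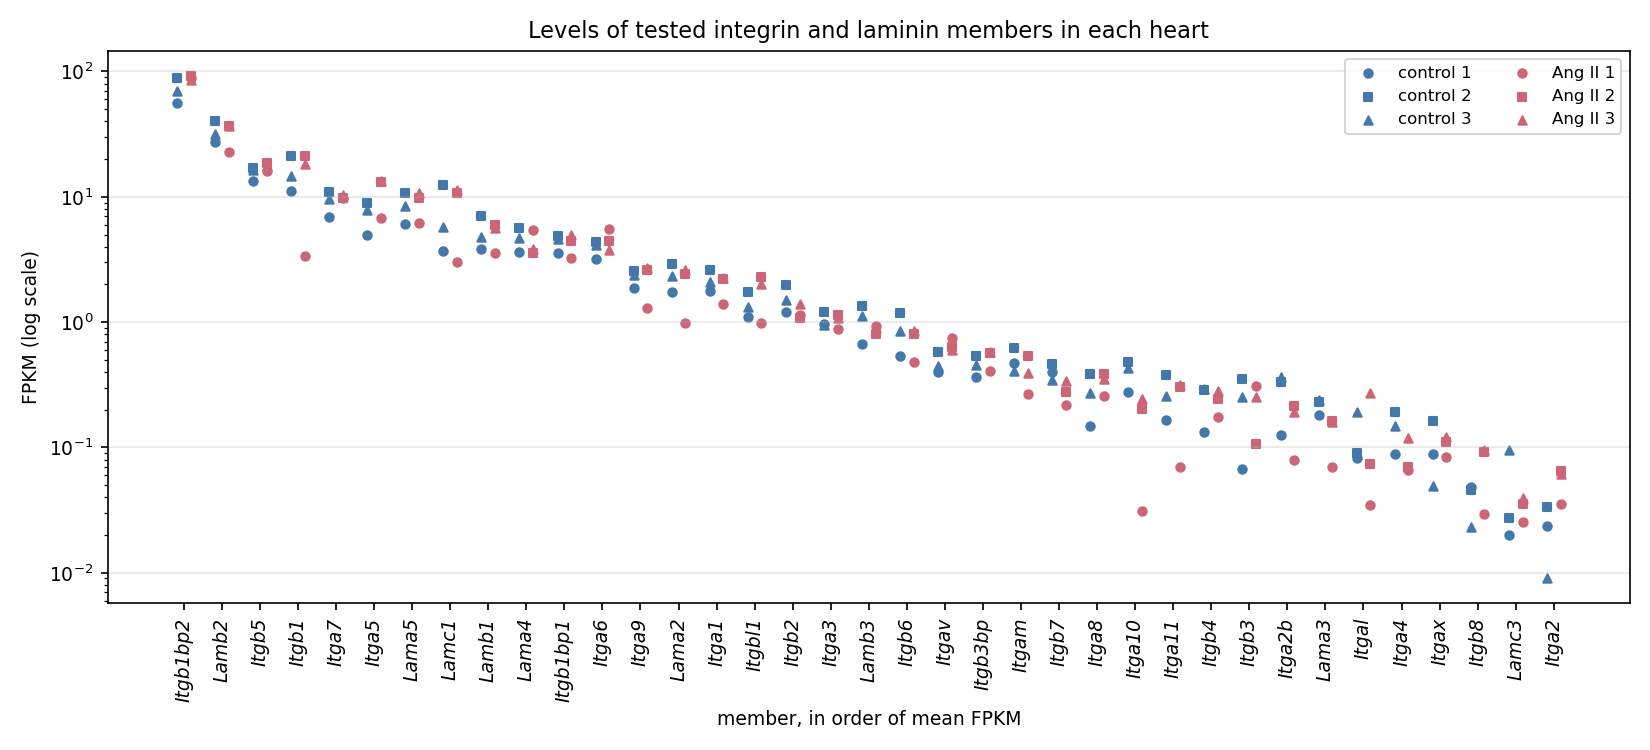
FPKM of the tested members reported on a logarithmic vertical axis, members ordered by mean FPKM, control libraries in blue and Ang II libraries in red, with circles, squares and triangles for replicates 1, 2 and 3. The order runs from Itgb1bp2 down to Itga2, and the Itgb1 circle of Ang II replicate 1 lies at 3.35 FPKM, far below the other 5 libraries.

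Upstream sequences of the α chains at an unadjusted p under 0.05 are shown so that the genes behind the α chain results can be seen, 1 higher and 2 lower. Each run holds the 250 bases before the RefSeq transcript start (GRCm38.p6), 5′ to 3′ on the gene's strand, with matches to GGGCGG on either strand in capitals. They lie at chr15:103366792-103367041 on the minus strand for Itga5, chr2:79255176-79255425 on the plus strand for Itga4 and chr3:96645334-96645583 on the plus strand for Itga10.
Itga5: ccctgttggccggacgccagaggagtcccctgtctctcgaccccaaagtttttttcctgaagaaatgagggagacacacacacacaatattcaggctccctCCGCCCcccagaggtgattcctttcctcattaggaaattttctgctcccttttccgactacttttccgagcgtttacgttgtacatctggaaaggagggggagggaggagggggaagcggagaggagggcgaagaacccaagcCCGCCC
Itga4: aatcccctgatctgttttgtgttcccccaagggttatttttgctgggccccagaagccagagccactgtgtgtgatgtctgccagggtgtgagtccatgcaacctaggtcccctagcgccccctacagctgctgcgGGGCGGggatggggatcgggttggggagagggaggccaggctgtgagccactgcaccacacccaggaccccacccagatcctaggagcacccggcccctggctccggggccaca
Itga10: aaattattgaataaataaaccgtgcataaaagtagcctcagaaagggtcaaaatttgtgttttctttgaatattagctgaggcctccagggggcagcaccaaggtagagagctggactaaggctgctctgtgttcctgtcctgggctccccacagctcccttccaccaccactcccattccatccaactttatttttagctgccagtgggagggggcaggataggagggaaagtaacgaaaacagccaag

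GGGCGG, the letters of the GC box, occurred 2 times in the Itga5 window, 1 time for Itga4 and 0 times for Itga10. It was found in 9 of the 27 members with an entry in the RefSeq promoter table and in 32.7% of all 32851 promoters of the same length. The GC content of the 3 windows was 55.6%, 64% and 48%, against a median of 52.4% over all promoters. The AP-1 letters TGANTCA (both strands) matched 1 of the 27 members, Itgax, and 6.75% of all promoters, and TATAAA (both strands) matched 0 of 27 and 12.4%. Matches to 2 different motifs of these 3 cannot overlap, whereas GGGCGG and TATAAA can overlap another match of their own; all matches describe letters only.

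Lamb2, a β chain of the vascular and muscle basement membrane, was the most abundant laminin transcript. It stood at 227, 231 and 205 CPM in control and 179, 220 and 215 CPM in Ang II hearts, overlapping ranges with a log2 change of -0.11 (SE 0.15). Lama5, the α chain typical of endothelial and epithelial basement membranes, stood at 94.1, 116 and 102 CPM and at 91.5, 110 and 117 CPM (log2 difference 0.03 with SE 0.16). For both the groups differed by less than their spread, with 95% intervals of -0.47 to 0.25 and -0.36 to 0.41. Lamc1, the γ chain shared by most laminins, varied more within the groups than between them, at 41.3, 96.6 and 50.0 CPM in control and 32.2, 87.5 and 90.5 CPM in Ang II hearts. Control replicate 2 and Ang II replicates 2 and 3 were its high libraries, and the log2 change was 0.16 (SE 0.47, adjusted p of 0.943 by edgeR).

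Among laminin α chains, Lama5 supplied 49.2% to 61.7% of the summed α chain FPKM, Lama4, made mainly by endothelial cells, 22.4% to 42.5%, and Lama2, the main α chain around muscle fibres, 7.73% to 15.3%. The control hearts were close to one another, with Lama2 at 14.9% ± 0.0567 and Lama4 at 29.8% ± 1.15 (SD, n = 3). Ang II replicates 2 and 3 held Lama2 at 15.3% and 15.02% and Lama4 at 22.4% and 22.4%, whereas Ang II replicate 1 held 7.73% and 42.5%. Within the Ang II group, then, replicate 1 lay on the opposite side of the controls from replicates 2 and 3 for Lama4. In CPM, Lama4 stood at 59.2, 64.2 and 59.5 in control hearts and at 83.9, 42.3 and 45.0 in Ang II hearts. Its log2 change was -0.10 (SE 0.28) with all libraries and -0.48 (SE 0.09, adjusted p of 0.1004 by edgeR) without Ang II replicate 1. The summed endothelial markers, given above, were lower in all 3 Ang II libraries; their part in the Lama4 values was not tested. Lama2 stood at 20.98 CPM in Ang II replicate 1 against 39.1 to 45.8 CPM in the other 5 hearts, in the library where fibroblast markers were also lowest, a link that was not tested.

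Lamb2 made up 82.6% to 85.9% of β chain FPKM and Lamb1 12.0% to 14.6%, with both groups alike. Lama1, the α chain of early embryonic basement membranes, had 4 counts in each of control replicates 1 and 2 and 0 in the other libraries, and was not tested.

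**Figure D3:**
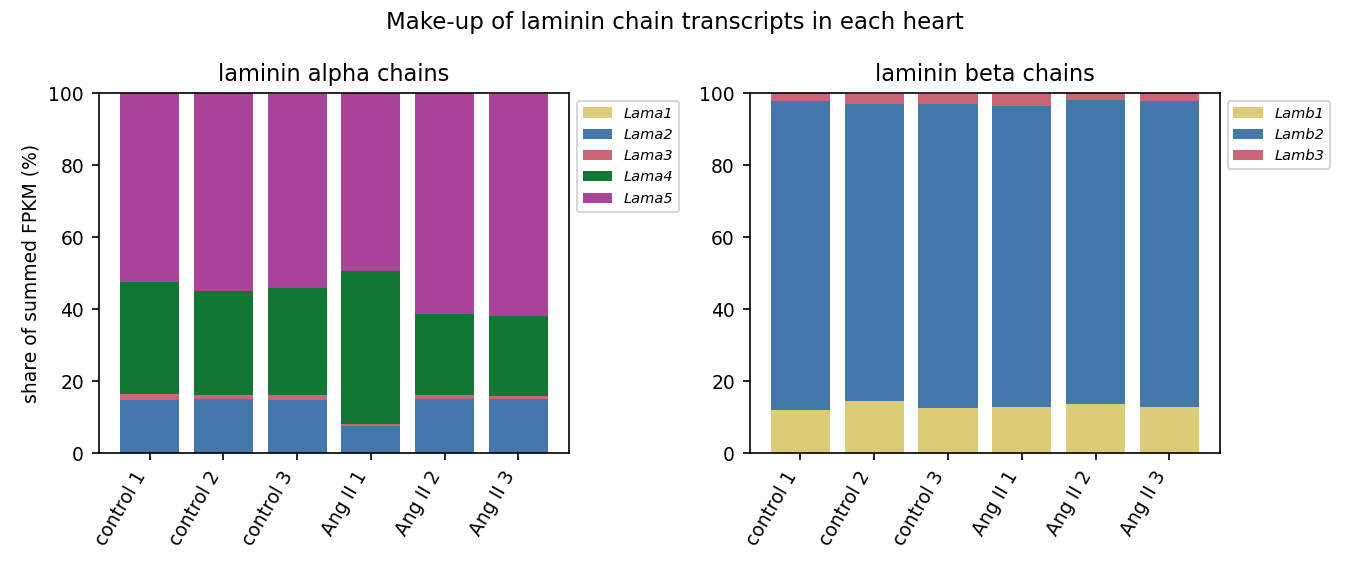
Stacked bars of the share (%) of summed FPKM taken by each laminin α and β chain in each of the 6 hearts. β chain make-up is alike in all hearts, while Ang II replicate 1 holds less Lama2 (7.73%) and more Lama4 (42.5%) than any other heart.

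Lama3 and Lamb3 encode chains of a laminin that anchors epithelia to the underlying stroma. Lama3 (ENSMUSG00000024421; chromosome 18, 12333819 to 12583013, plus strand) stood at 2.67, 2.34 and 2.73 CPM in control and 0.966, 1.72 and 1.64 CPM in Ang II hearts, so that the groups did not overlap. Its log2 change was -0.83 (SE 0.29), at an unadjusted p of 0.0241 and an adjusted p of 0.583 by edgeR, on 42 to 156 counts per library. Leaving out control replicate 1 or 3 gave an unadjusted p of 0.0606 and 0.0675 by edgeR. Leaving out any other single library gave 0.0229 to 0.0430. A processed pseudogene on the same strand lies within the Lama3 span. Lamb3 stood at 6.02, 8.499 and 7.82 CPM in control and 7.98, 5.26 and 5.73 CPM in Ang II hearts, overlapping ranges (log2 difference -0.24 with SE 0.23, or -0.44 leaving out Ang II replicate 1). Lamb3 overlaps Hsd11b1 and G0s2 on the opposite strand, and the strandedness of the libraries is not given in the sources used here. Epithelial markers stayed at 3.92 CPM or less in summed level in every library and had 5 of 5 tested folds below 0.

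**Figure D4:**
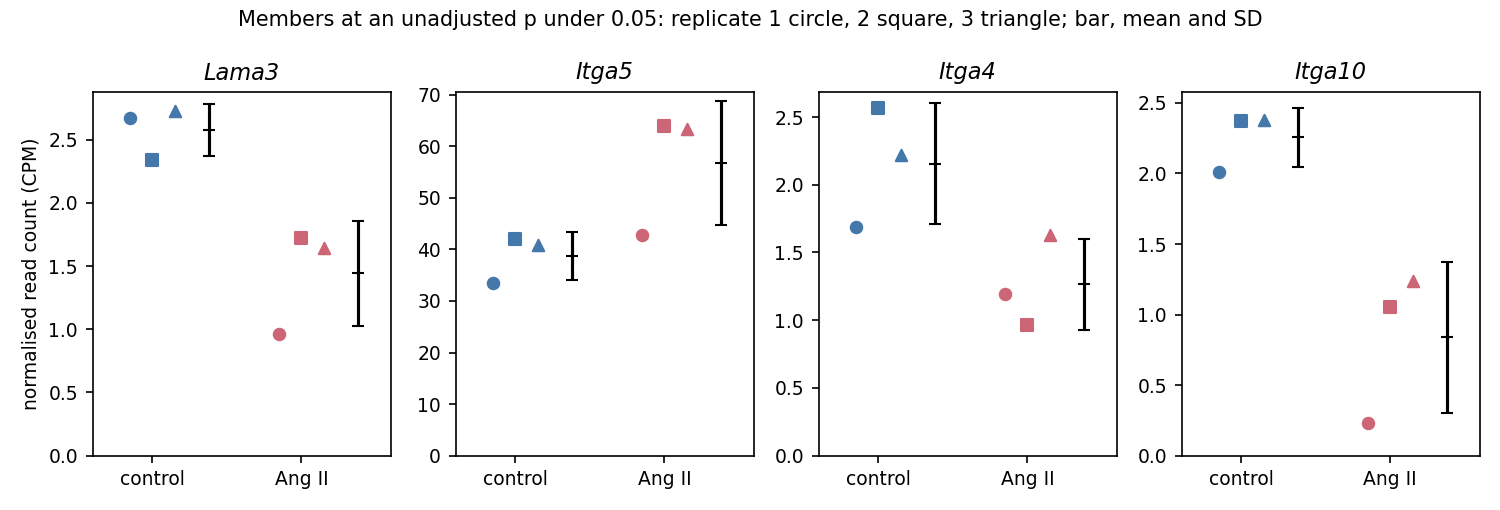
Normalised read count (CPM) of Lama3, Itga5, Itga4 and Itga10, one panel each with its own axis from 0, control libraries in blue and Ang II libraries in red, with the mean and SD of 3 hearts as black bars. The groups do not overlap in any panel, and the closest approach is Itga5, where Ang II replicate 1 at 42.8 lies just above control replicate 2 at 42.0.

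The receptors that read laminin were among the more abundant α chains. Itga7, the main laminin-binding α chain of adult striated muscle, stood at 76.1, 83.7 and 82.7 CPM in control and 101, 77.9 and 81.0 CPM in Ang II hearts (log2 difference 0.10 with SE 0.16). Itga6, the laminin-binding α chain of endothelium and epithelium, stood at 39.9, 37.8 and 39.7 CPM and at 65.3, 40.3 and 33.4 CPM (log2 difference 0.25 with SE 0.26). For both genes the high value belonged to Ang II replicate 1, and without that library the log2 changes were -0.02 and -0.08. Itga7 supplied 60.2% to 68.1% of the FPKM of the 3 laminin-binding chains and Itga3 5.42% to 8.66%. All 3 intervals lay within a 2-fold change.

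Of the collagen-binding chains, Itga1, widely made in vessels and stroma, held 74.5% to 91.1% of the summed FPKM. It stood at 44.8, 46.0 and 40.9 CPM in control and 33.4, 40.6 and 40.3 CPM in Ang II hearts, slightly lower without overlap (log2 difference -0.20, with SE 0.14 and an edgeR adjusted p of 0.767). Leaving out Ang II replicate 1, the Itga1 difference was -0.12. Its span overlaps Pelo and the protein-coding model Gm49395 on the same strand, which leaves its values uncertain. Itga10, known mainly from cartilage, stood at 2.01, 2.37 and 2.38 CPM in control and 0.230, 1.05 and 1.24 CPM in Ang II hearts, from 10 to 158 counts. The Ang II hearts were all lower, replicate 1 by far the most, and the log2 change was -1.41 (SE 0.55), at an unadjusted p of 0.0398 and an adjusted p of 0.634 by edgeR. Without that library it was -0.98 (SE 0.23, adjusted p of 0.147 by edgeR). Leaving out any control library or Ang II replicate 2 instead gave an unadjusted p of 0.0588 to 0.0896 by edgeR. Itga10 (ENSMUSG00000090210; chromosome 3, 96645584 to 96664519, plus strand) overlaps the protein-coding model Gm42957 on the same strand, and its values are uncertain for that reason. Itga11, a collagen receptor of fibroblasts, stood at 1.18 to 1.88 CPM in control hearts, and in the 3 Ang II hearts at 0.483, 1.54 and 1.57 CPM. Itga2, a collagen receptor of platelets and epithelia, had only 4 to 33 counts per library.

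Itga5 (ENSMUSG00000000555; chromosome 15, 103344286 to 103366763, minus strand) is the fibronectin-binding α chain and dominated the chains that read the arginine-glycine-aspartate motif, with 86.2% to 92.1% of their FPKM. It stood at 33.5, 42.0 and 40.9 CPM in control hearts and at 42.8, 63.99 and 63.3 CPM in Ang II hearts. In CPM all Ang II hearts lay above all controls, but replicate 1 only just. In FPKM that replicate stood at 6.72, below control replicates 2 and 3 at 8.97 and 7.84. The log2 change was 0.55 (SE 0.20), at an unadjusted p of 0.0317 and an adjusted p of 0.608 by edgeR. Without Ang II replicate 1 it was 0.72 (SE 0.12, adjusted p of 0.0808 by edgeR). Leaving out any other single library gave 0.45 to 0.61, at an unadjusted p of 0.0534 to 0.109 by edgeR. Itgav, which partners several β chains and can activate latent TGF-β, stood at 5.84, 5.86 and 5.09 CPM and at 10.3, 6.76 and 6.20 CPM, again without overlap (log2 difference 0.47, with SE 0.23 and an edgeR adjusted p of 0.697). Leaving out Ang II replicate 1 brought the Itgav difference to 0.21 (SE 0.14). Itga8, a chain of smooth muscle and mesenchymal cells, stood at 1.51 to 2.72 CPM in control and 2.44 to 2.80 CPM in Ang II hearts. Itga2b, the platelet fibrinogen receptor chain, stood at 0.985 to 2.18 CPM and 0.575 to 1.19 CPM (log2 difference -0.81 with SE 0.42), overlapping ranges. The platelet list, of which Itga2b is a member, had 3 of 6 folds below 0. By edgeR 1 of 6 (Ppbp) was lower at an unadjusted p under 0.05, against 3.94% of all genes. Without Ang II replicate 1, 3 were lower, against 7.60% of genes. The list summed to 13.5, 15.4 and 15.8 CPM in control and 23.9, 9.02 and 11.2 CPM in Ang II hearts. The part of platelets in the Itga2b values was not tested.

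Itga4 and Itga9 encode α chains with VCAM-1, fibronectin and tenascin among their ligands. Itga4 (ENSMUSG00000027009; chromosome 2, 79255426 to 79333123, plus strand), found mainly on leukocytes, stood at 1.69, 2.57 and 2.22 CPM in control and 1.20, 0.967 and 1.63 CPM in Ang II hearts. The lowest control heart and the highest Ang II heart were close, and the log2 change was -0.77 (SE 0.31), at an unadjusted p of 0.0408 and an adjusted p of 0.635 by edgeR. Without Ang II replicate 1 its log2 change was -0.73 (SE 0.33, adjusted p of 0.374 by edgeR), no longer below an unadjusted p of 0.05. Leaving out control replicate 2 or 3, or Ang II replicate 2, instead gave an unadjusted p of 0.0922 to 0.134 by edgeR. The Itga4 span overlaps Cerkl on the opposite strand. Itga9 stood at 18.7 to 19.4 CPM in control hearts and at 12.9, 19.8 and 20.0 CPM in Ang II hearts, where replicate 1 alone was low.

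Leukocyte integrins were scarce. Itgb2, the common β chain of leukocytes, stood at 4.97, 5.69 and 4.85 CPM in control and 4.51, 3.27 and 4.13 CPM in Ang II hearts, lower without overlap (log2 difference -0.38, with SE 0.20 and an edgeR adjusted p of 0.705). Without Ang II replicate 1 its log2 change was -0.48 (SE 0.18, adjusted p of 0.294 by edgeR). Its partner Itgam, carried by macrophages and neutrophils, stood at 2.18 to 3.24 CPM in control and 1.75 to 2.69 CPM in Ang II hearts. Itgam overlaps the protein-coding model Gm49368 on the same strand, which leaves its values uncertain. Itgal and Itgax lay between 0.273 and 1.71 CPM in every library. Itgb7, a lymphocyte chain, stood at 1.04 to 1.53 CPM and 0.782 to 0.928 CPM (log2 difference -0.59, with SE 0.29 and an edgeR adjusted p of 0.695). Beside these values, the macrophage markers had 5 of 6 folds below 0. By edgeR 1 of 6 (Adgre1) was lower at an unadjusted p under 0.05, against 3.94% of all genes. Without Ang II replicate 1, 2 were lower, against 7.60% of genes. The macrophage markers summed to 88.6 to 106 CPM in control hearts, against 151, 77.9 and 83.2 CPM in Ang II hearts. The neutrophil markers had all 5 of their tested folds under 0 (median -1.43 on the log2 scale). Of these, 1 of 5 (S100a8) stood below an unadjusted p of 0.05 by edgeR, against 3.94% of all genes lower. Their summed level was 12.8, 7.91 and 4.24 CPM in control and 2.94, 4.86 and 3.401 CPM in Ang II hearts, overlapping ranges. The part of either cell type in the integrin values was not tested. Itgae had 0 to 23 counts and Itgad 0 to 16 counts per library, and neither was tested.

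The β chains were dominated by Itgb1, the partner of most matrix-binding α chains, and Itgb5, a vitronectin receptor chain. Itgb5 stood at 64.4, 56.7 and 61.0 CPM in control and 73.6, 65.2 and 60.2 CPM in Ang II hearts (log2 difference 0.13 with SE 0.14). Itgb1 (ENSMUSG00000025809; chromosome 8, 128685654 to 128733200, plus strand) stood at 61.2, 81.2 and 63.3 CPM in control hearts and at 17.7, 85.0 and 71.8 CPM in Ang II hearts. Ang II replicate 1 was thus far below every other heart, and the remaining Ang II hearts lay in or above the control range. The log2 change was -0.24 (SE 0.52, adjusted p of 0.921 by edgeR) with all libraries and 0.19 (SE 0.16, adjusted p of 0.627 by edgeR) without that library, so its sign rested on 1 heart. The FPKM of Itgb1 was 0.828 to 1.25 times that of Itgb5 in the 5 other hearts and 0.209 times in Ang II replicate 1. Of the α chains that can pair with it, Itga7, Itga6 and Itgav were highest in that same library and Itga1, Itga9, Itga10 and Itga11 lowest. Itgb6 stood at 5.21 to 7.94 CPM and 4.44 to 5.83 CPM, and Itgb3, Itgb4 and Itgb8 lay between 0.291 and 2.35 CPM in every library, with log2 changes of 0.08, -0.05 and 0.71 (for Itgb3 -0.42 leaving out Ang II replicate 1) and none at an unadjusted p under 0.05.

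**Figure D5:**
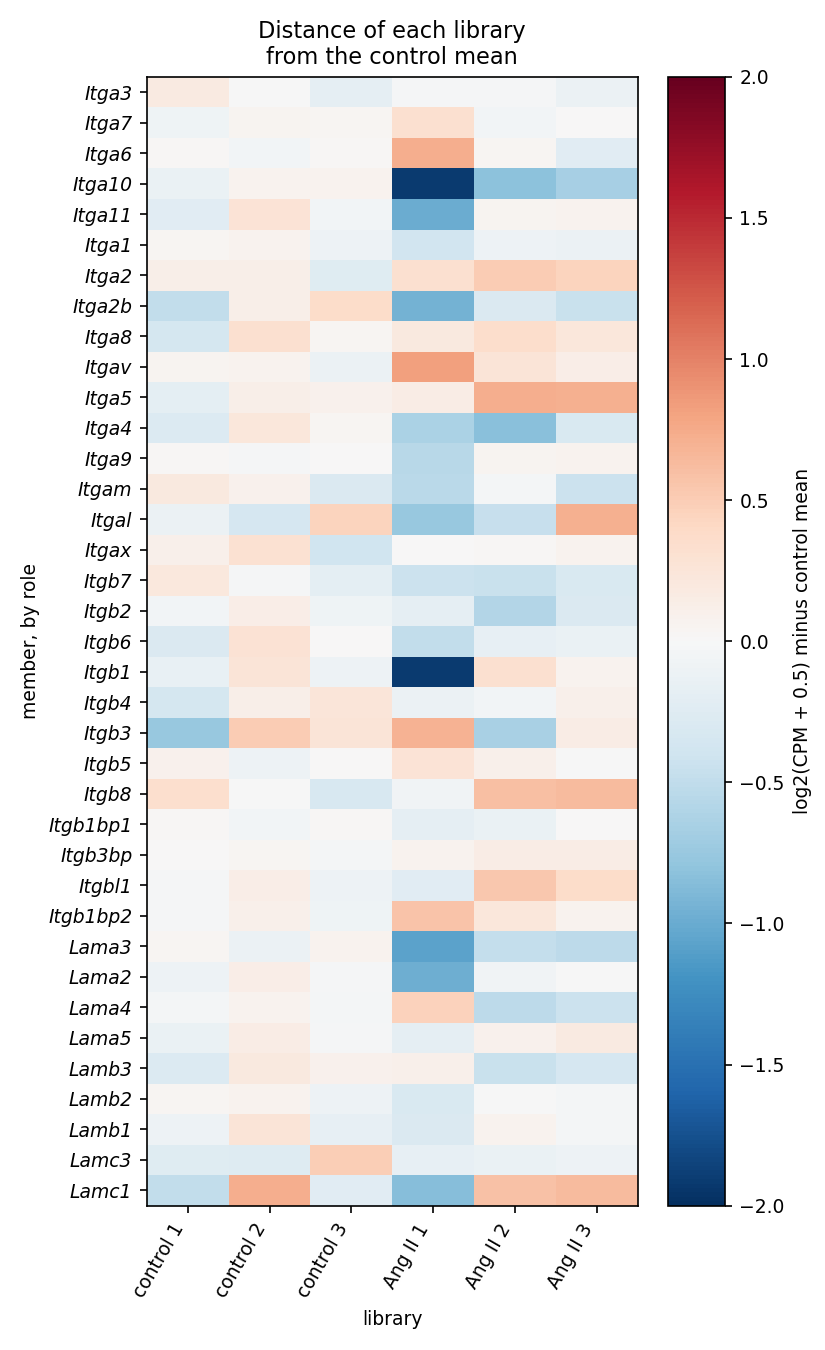
Colour shows log2(CPM + 0.5) of each tested member minus its mean over the 3 control hearts, for each of the 6 libraries in columns, with members in rows ordered by role (red above, blue below the control mean, scale from -2 to 2). Ang II replicate 1 holds most of the deep colours, the deepest of them for Itgb1 and Itga10.

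The 4 tested proteins that match by name without being integrin chains all had intervals inside a 2-fold change. Itgb1bp2 stood at 137, 151 and 132 CPM in control and 208, 163 and 148 CPM in Ang II hearts, with overlapping ranges (log2 difference 0.30, with SE 0.18 and an edgeR adjusted p of 0.732). Leaving out Ang II replicate 1, the Itgb1bp2 difference was 0.15. Itgb1bp1, which binds the β1 tail and restrains integrin activation, stood at 14.3 to 15.1 CPM and 13.1 to 14.9 CPM. Itgb3bp, a centromere protein, stood at 2.24 to 2.37 CPM and 2.46 to 2.60 CPM, a difference without overlap but with a log2 change of only 0.15 (SE 0.19). Itgbl1, a secreted protein with repeats resembling those of integrin β chains, stood at 6.26, 6.97 and 5.85 CPM in control hearts and at 5.36, 9.47 and 8.29 CPM in Ang II hearts, higher in replicates 2 and 3 alone. Itgb2l, an integrin-like gene of neutrophils, was listed at 0 counts in all 6 libraries.

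Around the receptors, adaptors of focal adhesions and costameres had 21 of 32 tested folds above 0, with a median log2 change of 0.03 against 0.01 over all genes. By edgeR 0 passed over all genes, and below an unadjusted p of 0.05 were 3 higher and 1 lower, against 3.57% and 3.94% of all genes. Nrap, which anchors actin at the intercalated disc, stood at 247 ± 34.6 and 447 ± 81.5 CPM (SD, n = 3; log2 change 0.86, SE 0.20; edgeR adjusted p = 0.420). Cav3, the muscle caveolin, stood at 29.3 ± 2.46 and 52.4 ± 17.3 CPM. DESeq2 called 1 of the adaptors, Nrap (adjusted p = 0.0134), where it called 1.65% of all genes. Without Ang II replicate 1 edgeR called Nrap as well (adjusted p = 0.0472), where 0.730% of genes were called. In that fit 7 adaptors were higher and 3 lower below an unadjusted p of 0.05, against 7.75% and 7.60% of genes. Regulators of integrin activity had 7 of 12 folds above 0 and 0 members at an unadjusted p under 0.05 by edgeR. The genes with the smallest p there were Sharpin, an inhibitor of integrin activation (13.9 ± 1.20 against 20.0 ± 6.79 CPM), and Rapgef3, which activates Rap1 (31.0 ± 2.70 against 24.2 ± 4.80 CPM).

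Other basement membrane genes had 14 of 16 folds below 0 and a median log2 change of -0.15. None passed in edgeR's test over all genes, and DESeq2 called 0. At an unadjusted p under 0.05 by edgeR 1 was lower, against 3.94% of all genes. Without Ang II replicate 1, 4 were lower, against 7.60% of genes. Hspg2, the heparan sulphate proteoglycan perlecan, stood at 226, 252 and 233 CPM in control and 146, 176 and 193 CPM in Ang II hearts (log2 difference -0.46, with SE 0.16 and an edgeR adjusted p of 0.583). Col15a1, a collagen of the basement membrane zone, stood at 38.6, 51.5 and 47.4 CPM and at 7.71, 28.0 and 31.1 CPM. In both, all Ang II hearts lay below all control hearts, and the endothelial markers, given above, were lower too; their part in these values was not tested.

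Dystroglycan and its partners, the other main laminin receptor of muscle, had 15 of 22 folds above 0, with a median log2 change of 0.18. Beside them, the cardiomyocyte markers had 6 of 6 folds above 0, with a median of 0.26. By edgeR 0 of 6 stood below an unadjusted p of 0.05. Without Ang II replicate 1, 4 of 6 did, all higher, against 7.75% of genes higher. The part of heart muscle cells in the dystroglycan values was not tested. By edgeR and DESeq2 0 of the dystroglycan list passed over all genes. Below an unadjusted p of 0.05 edgeR placed 3 higher and 1 lower, against 3.57% and 3.94% of all genes. Without Ang II replicate 1 it placed 8 and 1 there, against 7.75% and 7.60% of genes. The sarcoglycan Sgca stood at 69.3 ± 4.07 and 94.3 ± 14.2 CPM (log2 difference 0.44, with SE 0.16 and an edgeR adjusted p of 0.593). It was higher in every Ang II heart than in any control heart.

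Matrix and soluble ligands of integrins had 9 of 18 folds above 0. Ccn2, connective tissue growth factor, rose from 46.9 ± 2.90 to 177 ± 11.6 CPM and was the 1 gene of the list called by edgeR (log2 change 1.91, SE 0.14, adjusted p = 0.0398). That call was lost when any library other than Ang II replicate 1 was left out: edgeR then called 0 genes higher over the whole table, with 410 to 585 higher below an unadjusted p of 0.05. At an unadjusted p under 0.05 by edgeR, 2 of the list were higher and 2 lower, against 3.57% and 3.94% of all genes. Without Ang II replicate 1, 3 were higher and 4 lower, against 7.75% and 7.60% of genes. Vwf, the endothelial adhesion protein for platelets, stood at 53.8 ± 3.20 and 35.7 ± 3.33 CPM (log2 difference -0.59, with SE 0.14 and an edgeR adjusted p of 0.420). It is also among the endothelial markers given above, so its lower level is already counted there. Of the matrix and soluble ligands, DESeq2 called 3 genes, against 1.65% of all genes. Without Ang II replicate 1 edgeR called 3, against 0.730% of genes. Cell surface ligands of leukocyte integrins had 3 of 8 folds above 0 and 0 at an unadjusted p under 0.05 by edgeR, led by the junctional adhesion molecules F11r (30.4 ± 1.66 against 24.1 ± 3.68 CPM) and Jam2 (103 ± 3.86 against 81.4 ± 17.5 CPM).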

How the data were processed

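Whole-heart RNA-seq libraries, 3 control and 3 Ang II, were compared. The authors deposited FPKM and an estimated count per Ensembl gene and library; 0.0001 stands for 0 FPKM. HISAT2 2.0, StringTie 1.3.0, Bowtie 0.12.2 and build mm8 appear, with no role given, per the submitters' processing notes. Of 55141 gene IDs shared with GENCODE M21, however, 51920 (94.2%) had its GRCm38 coordinates, 38 of the 42 members among them, so positions are given on GRCm38. Each deposited estimated count is whole and entered the tests unrounded. Mitochondrially encoded genes held 35.8% to 47.6% of counts, a share that differs between libraries and enters the FPKM denominator. Libraries were therefore compared in CPM on scaled library sizes, and genes with one another in FPKM.

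Differences were tested with edgeR 4.0.16 (quasi-likelihood, TMM scaling, filterByExpr, two-sided, Benjamini-Hochberg adjustment, threshold 0.05) on all 16759 genes kept; standard errors and intervals were derived from its F statistic. DESeq2 1.42.0 and limma 3.58.1 on log2(FPKM + 0.5) were run beside it in R 4.3.3, and the edgeR step was tested on simulated data. Libraries of a group differed by a chi-square per degree of freedom of 34.0 to 479, so none was the same library sequenced again. The value cannot show that each library came from a separate heart, which rests on the sample titles. Members and gene lists were chosen with earlier results of these data known. Named genes follow a rule: members at an unadjusted p under 0.05, the 3 most abundant α, β and laminin chains, and in each partner list the 2 of smallest p and any gene called. Values of further members are named outside that rule. Values of 1 member and 1 partner gene are not reported here, though counts include them. The alternatives changed the scaling, filter, pseudocount or test, added a replicate block, or left out each library in turn. Figures were drawn with matplotlib 3.10.9.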

Additional observations from a re-analysis of the deposited data

How the results depend on the processing

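Over 15 alternatives the 13 named members gave 186 values, of which 177 kept their direction and their side of the threshold. Members called over all genes numbered 0 by edgeR in every alternative, leaving out any 1 library included (0 to 0), and by limma, and 1 by DESeq2. Members at an unadjusted p under 0.05 numbered 5 in edgeR's test, 1 by limma with a pseudocount of 0.5, 0.1 or 1, 2 by limma without a filter, and 1 to 7 when 1 library was left out, fewest without control replicate 3 and most without Ang II replicate 1. Limma with a filter tested 23 members. Signs reversed only when a library was left out. Ranges were -0.024 to 0.17 for Itga7, -0.083 to 0.43 for Itga6, -0.62 to 0.19 for Itgb1, -0.050 to 0.12 for Lama5 and -0.065 to 0.62 for Lamc1, and the cause was not tested. In distance from the group mean, same-numbered hearts of the groups had correlations of 0.08, 0.11 and -0.04. Differently numbered hearts had -0.13 to 0.08. These ranges overlap, and 3 hearts a group cannot settle whether the hearts were paired. With the replicate block edgeR called 0 members and 0 genes (Ccn2 lost its call), against 6 genes without it. With the block 5 members stood at an unadjusted p under 0.05. Genes called over the whole table numbered 6 in edgeR, 276 by DESeq2, 129 without Ang II replicate 1, 2 without Ang II replicate 2, 0 without any other single library, 12 without a filter, and 1 to 3 by limma.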
